A study of Mus musculus with 8 samples.

Results

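The genes described are 10 heat shock and small chaperone genes, Hspa1a, Hspa1b, Hspa8, Hsp90aa1, Hsph1, Dnajb1, Hspb1, Hspb6, Hspb7 and Cryab. They were taken by symbol from the 32285 genes that each count table lists, and each symbol matched 1 gene. The values come from hearts of wild-type male C57BL/6J mice that had a sham operation or transverse aortic constriction (TAC). TAC is a surgical narrowing of the aorta that overloads the left ventricle. The mice were 8 weeks old at the start. Hearts were taken 2, 4 or 6 weeks after TAC (TAC-2w, TAC-4w and TAC-6w), so age and time after TAC cannot be told apart. The labels give no time after the operation for the sham hearts. Each of the 4 conditions had 1 spatial transcriptomics section, in which RNA is captured on a grid of spots that each cover several cells, and 1 single-cell library of a dissociated heart. With 1 section and 1 library per condition there was no replicate, so no difference between conditions could be tested, and every interval below is a 95% interval that covers counting error only.

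Chaperones bind unfolded proteins and keep them from aggregating until they refold or are degraded. Under heat, oxidative or mechanical stress the transcription factor Hsf1 binds heat shock elements and switches on inducible chaperones such as Hspa1a and Hspa1b, the paired genes of inducible Hsp70. Small heat shock proteins hold unfolded protein without using ATP, and Cryab, Hspb6 and Hspb7 are abundant in heart muscle without added stress.

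Promoters are printed for the members in which the bases before the start site hold a heat shock element, the site at which Hsf1 binds. RefSeq windows (GRCm38.p6) that run from 250 bases before to 50 after the start site were given for 7 of the 10 members, and none was given for Hspa8, Hsp90aa1 and Cryab. The bases before the start site are printed 5′ to 3′, in lower case, with capitals marking the letters of an element of 2 units.
Hspa1a, chr17:34972157-34972406, minus strand: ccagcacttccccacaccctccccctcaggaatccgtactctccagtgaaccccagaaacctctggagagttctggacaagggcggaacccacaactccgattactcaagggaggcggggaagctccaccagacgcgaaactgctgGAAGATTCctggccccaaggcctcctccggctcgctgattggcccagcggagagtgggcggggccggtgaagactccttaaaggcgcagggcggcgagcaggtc
Hspa1b, chr17:34959239-34959488, minus strand: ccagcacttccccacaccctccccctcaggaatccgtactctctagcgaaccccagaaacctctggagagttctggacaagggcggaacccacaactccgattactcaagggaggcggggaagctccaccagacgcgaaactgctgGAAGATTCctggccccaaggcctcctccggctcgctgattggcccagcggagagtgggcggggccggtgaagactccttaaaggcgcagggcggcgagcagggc
Hsph1, chr5:149636337-149636586, minus strand: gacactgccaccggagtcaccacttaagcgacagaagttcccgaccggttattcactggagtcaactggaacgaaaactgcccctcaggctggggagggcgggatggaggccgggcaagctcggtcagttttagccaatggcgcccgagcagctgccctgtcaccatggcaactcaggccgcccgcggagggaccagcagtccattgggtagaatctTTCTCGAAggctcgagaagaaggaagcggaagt
Hspb1, chr5:135887669-135887918, plus strand: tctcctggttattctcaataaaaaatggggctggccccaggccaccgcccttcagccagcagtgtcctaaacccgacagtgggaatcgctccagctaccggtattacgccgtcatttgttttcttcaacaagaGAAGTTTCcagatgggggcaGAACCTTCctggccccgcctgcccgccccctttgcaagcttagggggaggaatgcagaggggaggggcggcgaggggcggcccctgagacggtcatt
Hspb6, chr7:30553051-30553300, plus strand: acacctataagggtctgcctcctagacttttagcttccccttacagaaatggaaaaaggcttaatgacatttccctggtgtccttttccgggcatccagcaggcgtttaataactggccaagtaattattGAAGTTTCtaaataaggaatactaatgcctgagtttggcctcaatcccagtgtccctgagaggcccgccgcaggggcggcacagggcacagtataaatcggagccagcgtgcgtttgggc
Elements were searched on both strands of the whole 300-base window as GAANNTTC and TTCNNGAA, and as a 3-unit form, GAANNTTC directly followed by NNGAA, which overlaps both. Of 32851 mouse windows of that length, 7.86% held GAANNTTC, 8.52% held TTCNNGAA and 0.603% held the 3-unit form. GAANNTTC began 104 bases before the start site in both Hspa1a and Hspa1b, whose windows differed at 4 of 300 positions. In Hspb1 it began 117 and 97 bases before the start site, and in Hspb6 120 bases before the second of 2 listed start sites. Hsph1 held TTCNNGAA 33 bases before its first start site and a 3-unit form 36 bases after it, beyond the printed bases. The letters were not in the windows of Hspb7 or Dnajb1, nor at the first start site of Hspb6. A match describes the letters and was not tested as a binding site. Because Hspa1a and Hspa1b are near-identical copies, the split of reads between them is uncertain.

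The sections held 1676, 2063, 1228 and 2193 spots for sham and 2, 4 and 6 weeks of TAC, and 25996378 to 48754396 UMIs (unique molecular identifiers, which count RNA molecules). Mitochondrial genes took 51.5% of the sham UMIs and 42.2 to 44.2% of those of the TAC sections. After filters the libraries held 7965, 6293, 6531 and 5399 cells, and pairs of libraries shared 9 to 30 cell barcodes. By the labels the sham and TAC-2w sections share a batch, as do the sham and TAC-6w libraries, while the sections of TAC-4w and TAC-6w and the libraries of TAC-2w and TAC-4w do not share the batch of sham. For these, condition and batch cannot be told apart. The TAC-4w section also stood apart in Myh7, the fetal myosin heavy chain, at 174 times its sham level.

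In the sections, the muscle chaperones Cryab, Hspb6 and Hspb7 were higher after TAC than in sham, except that the direction of Hspb7 in TAC-2w turned with the scaling (below sham without mitochondrial genes in the total). Levels are summed UMIs per 1000000 UMIs of the section (CPM). Cryab, αB-crystallin, which binds desmin, was at 1748, 2138, 2825 and 2574 CPM in sham and 2, 4 and 6 weeks of TAC. All 3 TAC sections lay above sham, with ratios of 1.22 (1.21 to 1.24), 1.62 (1.60 to 1.63) and 1.47 (1.46 to 1.49). Hspb7, a small heat shock protein of heart and skeletal muscle, was at 568, 595, 1059 and 789 CPM in the same order. TAC-2w was close to sham, with a ratio of 1.05 (1.03 to 1.07), and TAC-4w was highest, with 1.865 (1.83 to 1.90). Hspb6, also called Hsp20, was at 438, 565, 634 and 760.5 CPM. Its highest section was TAC-6w, with a ratio of 1.74 (1.7 to 1.77). Together these 3 genes took 2754, 3298, 4518 and 4123 CPM in sham and 2, 4 and 6 weeks of TAC. In spots, fewer cells of a type and less RNA per cell cannot be told apart.

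The other 7 members together were at 1038, 899, 1020 and 1094 CPM, a sum in which Hspa8 is the largest part and single members moved in opposite directions. Hspb1, the small heat shock protein Hsp27 (Hsp25 in the mouse), was at 209.8, 203, 310 and 314.5 CPM. TAC-2w was close to sham, while TAC-4w and TAC-6w had ratios of 1.48 (1.43 to 1.53) and 1.499 (1.45 to 1.55). Hspa8, the constitutive Hsc70, was at 692, 592, 586 and 612 CPM, and each TAC section was below sham. Hsp90aa1, the inducible cytosolic Hsp90, was at 99.7, 74.7, 85.5 and 116 CPM, below sham in TAC-2w and TAC-4w, while TAC-6w was at 1.165 times sham in these totals and at 0.963 with the median of gene ratios as scaling. Hsph1, the Hsp110 that exchanges nucleotide on Hsp70, was at 20.4, 14.7, 14.15 and 33.6 CPM. TAC-6w stood above the other sections, with a ratio of 1.65 (1.49 to 1.82) to sham. Dnajb1, the Hsp40 that hands clients to Hsp70, was at 10.4, 10.1, 12.7 and 11.2 CPM, and the intervals of its TAC-2w and TAC-6w ratios, whose direction turned with the scaling, included 1.

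The inducible Hsp70 genes were sparse in the sections. Hspa1a had 66, 119, 256 and 161 UMIs in sham and 2, 4 and 6 weeks of TAC, or 2.54, 2.44, 8.01 and 3.33 CPM. TAC-4w stood apart with a ratio of 3.16 (2.4 to 4.203), and 16.8% of its spots held a Hspa1a UMI, against 3.70% in sham. These shares also depend on depth, which had a median of 27593 UMIs per spot in TAC-4w and 15488 in sham. TAC-2w and TAC-6w could not be told from sham within counting error. Hspa1b was at 2.46, 1.74, 3.91 and 3.15 CPM, with a TAC-4w ratio of 1.59 (1.17 to 2.18). Levels were far higher in the libraries. Over all kept cells Hspa1a was at 727.5, 866, 126 and 549 CPM there, in the same order of conditions. The mix of cell types, named by markers, differed between the libraries. Fibroblast-like cells numbered 4314, 3067, 391 and 2805 and macrophage-like cells 1615, 1586, 166 and 913. B cell-like cells numbered 232, 156, 2426 and 915. The part of this mix in the Hspa1a values was not tested. The gap between the assays was not tested. Immediate early genes, which cells switch on within minutes of a stimulus, were also high in the TAC-4w section. Of 12 such genes 11 were measured, with Atf3 at 10.7 and Fos at 2.74 times sham. At least 1.5-fold higher there were 5 of them and none was lower, against 15.4% and 3.15% of all genes measured. The part of immediate early genes in the Hspa1a value was not tested.

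**Figure D1:**
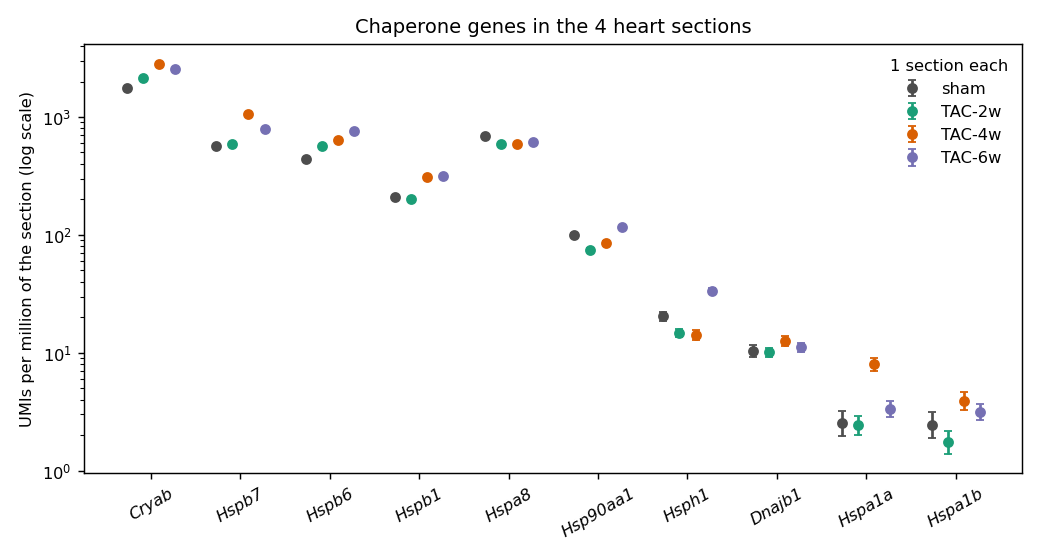
Level of each member in the 4 sections, in CPM on a log axis, with 1 point per section and bars for the exact Poisson 95% interval. Cryab ran from 1748 in sham to 2825 in TAC-4w, and Hspa1a stood at 8.01 in TAC-4w against 2.54 in sham.

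Members were counted at a fold of 1.5 in either direction among genes with at least 50 UMIs in the pair of sections, which all 10 passed. In TAC-2w no member was past it, while 5.13% of the 12117 genes measured were past it upward and 4.73% downward. In TAC-4w 4 of 10 were higher (Hspa1a, Hspb7, Cryab and Hspa1b) and none lower, against 15.4% and 3.15% of 12006 genes. In TAC-6w 2 of 10 were higher (Hspb6 and Hsph1) and none lower, against 17.9% and 1.43% of 12443 genes. The median ratio of the members was 0.965, 1.46 and 1.35 at 2, 4 and 6 weeks, and that of all genes measured 1.025, 1.15 and 1.23. Relative to the median of all genes, Hspa1a in TAC-4w was at 2.74, Hspb7 at 1.62 and Cryab at 1.40, and in TAC-6w Hspb6 was at 1.41 and Hsph1 at 1.335. When totals were taken without mitochondrial genes and features resembling ribosomal RNA, 3 members were lower in TAC-2w (Hspa1b, Hsph1 and Hsp90aa1), 2 were higher in TAC-4w (Hspa1a and Hspb7) with Hsph1 lower, and 1 was higher in TAC-6w (Hspb6). On that scale Cryab was at 1.05, 1.35 and 1.28 times sham, and Hspb7 in TAC-2w turned to 0.896.

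All 35 genes of a list of other chaperones, partners and regulators were measured in the sections. In TAC-2w 2 were at least 1.5-fold higher and 1 lower, near the 5.13% and 4.73% of all genes measured. In TAC-4w none was higher and 1 lower, against 15.4% and 3.15% of all genes. In TAC-6w 2 were higher and none lower, against 17.9% and 1.43%. The higher ones were Hspb3, a muscle small heat shock protein, at 1.75 in TAC-2w and 1.65 in TAC-6w, Hspe1, the mitochondrial Hsp10, at 1.52 in TAC-2w, and Hspb8, the partner of Bag3, at 1.60 in TAC-6w. The lower ones were Hsf2, a heat shock factor, at 0.655 in TAC-2w and Fkbp4, an Hsp90 co-chaperone, at 0.634 in TAC-4w. The median ratio of the list was 1.02, 1.08 and 1.16, below that of all genes in each comparison. The 5 chaperones of the endoplasmic reticulum had medians of 0.884, 0.859 and 0.921.

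Within a section, the muscle chaperones showed weak spatial patterns. Moran's I, which is near 0 for no spatial pattern and near 1 where neighbouring spots are alike, was 0.0595 to 0.1225 for Cryab, 0.0556 to 0.139 for Hspb7 and 0.0627 to 0.122 for Hspb6. Hspa1a was at most 0.00952, a value limited by its few UMIs per spot. Spots at the tissue edge, which have fewer than 6 neighbouring spots over tissue, held more Hspb7 than the other spots in all 4 sections, at 1.24, 1.10, 1.33 and 1.35 times in sham and 2, 4 and 6 weeks of TAC. Hspb6 was also higher at the edge in each section, at 1.18, 1.06, 1.21 and 1.125 times. Cryab at the edge was 0.982 to 1.055 times the other spots, and Myh6, the adult myosin heavy chain, 0.9645 to 1.04 times. Edge spots were deeper than the others in sham (median UMIs 22203 against 14865), TAC-2w (26292 against 24452) and TAC-6w (27654 against 19709) and shallower in TAC-4w (26288 against 27656), and the part of depth was not tested.

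Vessel spots, the top 5% of each section by Myh11, Tagln and Acta2, differed in other members. Hspb1 was higher in them in each section, at 1.56 (1.42 to 1.72), 1.12 (1.02 to 1.22), 1.26 (1.16 to 1.37) and 1.15 (1.06 to 1.25) times the other spots. Hspa8 was likewise higher in each, at 1.27, 1.07, 1.13 and 1.11 times, and Cryab was lower in each, at 0.922, 0.9504, 0.967 and 0.960 times. The ratios of Hspa1a were 1.41, 2.74, 2.12 and 2.02, and their intervals included 1 in sham and TAC-6w. Those of Hspa1b were 2.45, 2.83, 1.34 and 1.94, with intervals that included 1 in TAC-4w and TAC-6w. In TAC-6w the vessel spots were shallow, with a median of 6169 UMIs against 20845. In collagen-rich spots, the top 10% by Col1a1, Col1a2 and Col3a1, Hsp90aa1 was higher in each section, at 1.19, 1.21, 1.18 and 1.185 times, as was Hspa8, at 1.15, 1.07, 1.1 and 1.10 times. In the top 10% of spots by Nppa, the atrial natriuretic peptide, Cryab was at 1.00 to 1.04 times the other spots. Hspa1b was at 1.32, 1.095, 2.24 and 2.08 times there, with intervals that included 1 in sham and TAC-2w. Hspa1a was at 0.880, 1.76, 1.29 and 1.35 times there, with intervals that included 1 in each section. In sham and 2, 4 and 6 weeks of TAC these spots had medians of 10006, 18856, 32563 and 9585 UMIs. The other spots had 16017, 24841, 27186 and 21131, and the part of depth was not tested. Atrial spots, with Myl7 above Myl2, numbered 0 in each section.

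**Figure D2:**
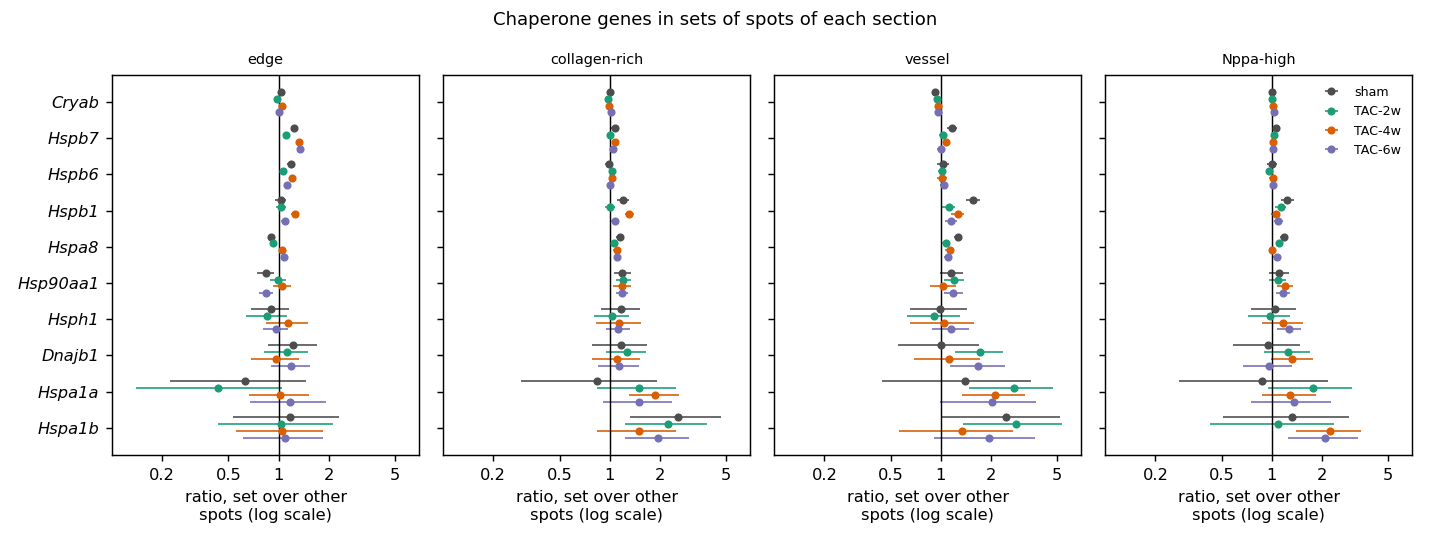
Ratio of members in sets of spots to the other spots of the same section, on a log axis, with 1 point per section and bars for exact 95% intervals. Hspb7 lies above 1 at the edge in all 4 sections (1.10 to 1.35), and Hspb1 in vessel spots (1.12 to 1.56).

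Over spots the log levels of the members, scaled to the total of each spot, hardly followed each other. Low counts per spot limit such correlations, most of all for Hspa1a and Hspa1b. In sham 100% of the Hspa1a UMIs lay within 5% of spots. The highest mean correlation of a pair over the 4 sections was 0.119 (Pearson's r), between Hspb6 and Cryab, and the points share their spots' depth. Among 1726 genes searched, Atp2a2, the calcium pump of the sarcoplasmic reticulum, was most like Cryab, with correlations of 0.1898, 0.397, 0.0676 and 0.182 over the spots of sham and 2, 4 and 6 weeks of TAC. No other member had a gene with a mean correlation of at least 0.2.

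In the libraries, the muscle chaperones were highest in cardiomyocyte-like cells. Cells were clustered with the chaperone genes left out, clusters were named by lists of 6 markers per cell type, and levels are UMIs per 1000000 UMIs of the cells of a type (CPM). Cardiomyocyte-like cells numbered 106, 74, 23 and 10 in sham and 2, 4 and 6 weeks of TAC, with median depths of 2050, 2513, 2108 and 1452 UMIs, and Myl7 and Sln, which are atrial genes, were among their leading genes. Over the 4 libraries together Cryab was at 6743 CPM in them, 18.1 times the level in smooth muscle cell or pericyte-like cells, which came next. Hspb7 was at 598 CPM and Hspb6 at 445 CPM in cardiomyocyte-like cells, 3.57 and 3.09 times the level in smooth muscle cell or pericyte-like cells. The remaining 7 members were highest in other cell types.

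Within cardiomyocyte-like cells Hspb7 and Hspb6 were higher in TAC-4w and TAC-6w than in sham. Cryab was at 6117, 7103, 7721 and 7366 CPM in sham and 2, 4 and 6 weeks of TAC, and the sham interval (5874 to 6366) overlapped only that of TAC-6w (6176 to 8719), which rests on 135 UMIs. Hspb7 was at 499.7, 473, 1187 and 1310 CPM, on 196, 160, 136 and 24 UMIs. The TAC-4w and TAC-6w intervals (995.5 to 1404 and 839 to 1948) lay above those of sham and TAC-2w (432 to 575 and 403 to 553). Hspb6 had the same pattern, at 357, 402, 785 and 982 CPM. The 6 cardiomyocyte markers took 48924, 42162, 63654 and 77481 CPM of the same cells, and so differed between libraries. Per 100 marker UMIs these cells held 1.02, 1.12, 1.86 and 1.69 Hspb7 UMIs and 0.730, 0.954, 1.23 and 1.27 Hspb6 UMIs, with sham lowest for both. Cryab per 100 marker UMIs was 12.5, 16.85, 12.1 and 9.51, with no such order. Of these markers, Myl2 alone ranged from 10618 to 39832 CPM between the libraries. The part of the mix of atrial and ventricular cells in the Hspb7 and Hspb6 values was not tested.

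Cardiomyocyte RNA was also counted in other cell types, at levels that differed between the libraries. Cryab was found in 95.3, 98.65, 95.65 and 100% of the cardiomyocyte-like cells of sham and 2, 4 and 6 weeks of TAC. B cell-like cells, which should lack it and had median depths of 3058, 3632, 4350 and 1902 UMIs, held a Cryab UMI in 4.74, 12.2, 0.742 and 0.656% of cells. The 6 cardiomyocyte markers summed to 227, 290.5, 19.5 and 20.2 CPM in B cell-like cells. Macrophage-like cells held 10.1, 10.1, 13.0 and 12.5 Cryab UMIs per 100 marker UMIs, against 12.5, 16.85, 12.1 and 9.51 in cardiomyocyte-like cells. The TAC-4w value of macrophage-like cells rested on 7 Cryab and 54 marker UMIs. Hspb6 in macrophage-like cells was at 1.28, 1.58, 9.26 and 2.77 per 100 marker UMIs, above its ratio in cardiomyocyte-like cells in each library. Whether these values are background was not tested. Fibroblast-like cells held 202, 156, 919 and 530 Cryab UMIs per 100 marker UMIs and smooth muscle cell or pericyte-like cells 61.9, 113, 311 and 300. These were above the ratio in cardiomyocyte-like cells in every library. In smooth muscle cell or pericyte-like cells the TAC-4w and TAC-6w values rested on 9 and 40 marker UMIs. Cryab in fibroblast-like cells was at 182, 173, 174 and 216 CPM, highest in TAC-6w.

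**Figure D3:**
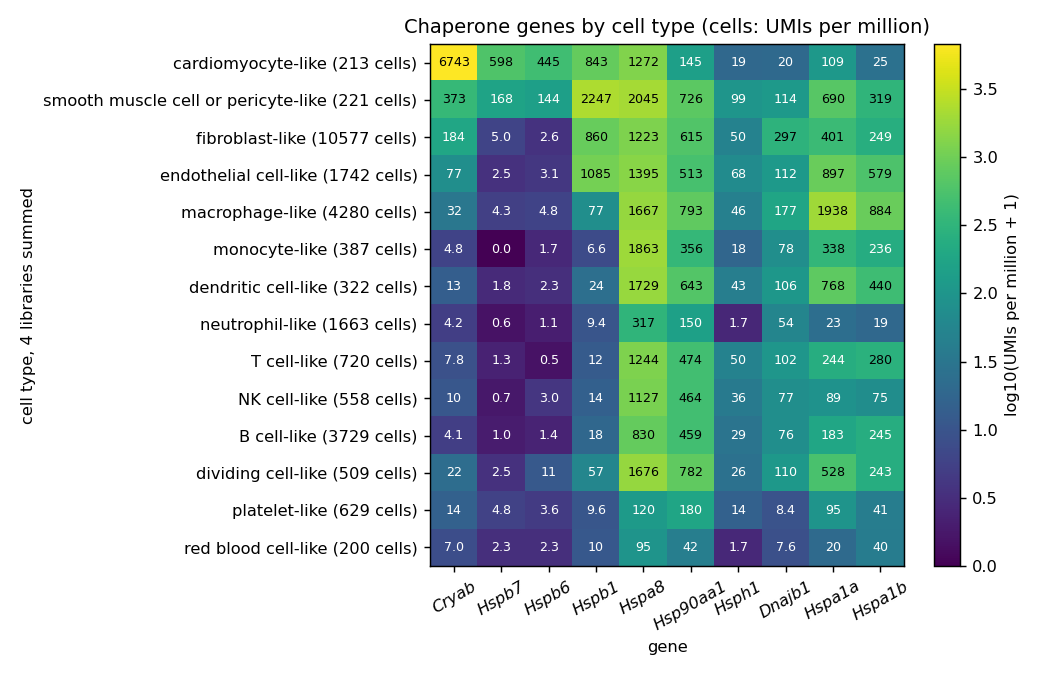
Level of each member by cell type with the 4 libraries summed, in CPM (numbers in the cells) on a log10 colour scale. Cryab, Hspb7 and Hspb6 are highest in cardiomyocyte-like cells (6743, 598 and 445), Hspb1 in smooth muscle cell or pericyte-like cells (2247) and Hspa1a in macrophage-like cells (1938).

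Hspb1 was highest in smooth muscle cell or pericyte-like cells with the libraries summed. Over the libraries together Hspb1 was at 2247 CPM in them, 1085 in endothelial cell-like and 860.5 in fibroblast-like cells. In cardiomyocyte-like cells it was at 864, 822.5, 803 and 1037 CPM in sham and 2, 4 and 6 weeks of TAC, with intervals that overlap. Macrophage-like cells were far lower, at 81.8, 77.1, 3.89 and 83.7 CPM, on 1002, 1136, 5 and 296 UMIs. Smooth muscle cell or pericyte-like cells also held Hspb6 at 165 and Hspb7 at 171 CPM in sham, and numbered 105, 90, 7 and 19. Hspa8 was found widely, at 2045 CPM in smooth muscle cell or pericyte-like, 1667 in macrophage-like, 1272 in cardiomyocyte-like and 1223 in fibroblast-like cells. Its leading type differed between libraries, being monocyte-like in TAC-4w and macrophage-like in TAC-6w, and between ways of naming the cells.

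The inducible Hsp70 genes had another order of cell types, led by macrophage-like cells. Over all cells of a library both genes stood far above their section levels. Hspa1a was at 1990 CPM in them in sham (1965 to 2015), 1994 in TAC-2w (1971 to 2017), 549 in TAC-4w (509 to 591) and 2031 in TAC-6w (1984 to 2078). It was highest in them in each of the 4 libraries, among types with at least 20 cells. Hspa1b was at 851, 879, 382 and 1203 CPM in macrophage-like cells, and only in TAC-2w was another type higher, endothelial cell-like cells at 973 CPM. Cardiomyocyte-like cells held 87 Hspa1a UMIs in sham, in 10.4% of the cells, and 5, 1 and 1 UMIs in the TAC libraries. The paired genes were counted in the same cells more often than elsewhere. The part of the uncertain split of reads between these near-identical copies was not tested. With cells thinned to 1000 UMIs, 20.6 to 64.0% of fibroblast-like, macrophage-like or endothelial cell-like cells with a Hspa1a UMI had a Hspa1b UMI, against 6.63 to 25.1% of those without, by type and library.

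The cochaperones and Hsp90aa1 were spread over stromal and immune cells. Dnajb1 was at 325, 322, 55.4 and 246 CPM in fibroblast-like cells of sham and 2, 4 and 6 weeks of TAC, where it was highest in each library except TAC-4w. Hsph1 was at 94.65, 94, 34.7 and 35.0 CPM in endothelial cell-like cells, lower in the later TAC libraries than in sham. Hsp90aa1 was at 793 CPM in macrophage-like cells over the libraries together and at 145 in cardiomyocyte-like cells.

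The TAC-4w library held the inducible chaperones below their sham level in the main cell types, the opposite direction to Hspa1a and Hspa1b in the TAC-4w section. In fibroblast-like cells Hspa1a was at 413, 481, 135 and 283 CPM in sham and 2, 4 and 6 weeks of TAC, and the TAC-4w ratio to sham was 0.326 (0.3025 to 0.350). In macrophage-like cells the ratio was 0.276 (0.255 to 0.297). In endothelial cell-like cells, at 1316, 1428, 199 and 716 CPM, it was 0.151 (0.140 to 0.162). In each of these types TAC-4w was the lowest library. The TAC-4w ratios in fibroblast-like, macrophage-like and endothelial cell-like cells were 0.478, 0.449 and 0.172 for Hspa1b, 0.171, 0.240 and 0.195 for Dnajb1 and 0.459, 0.365 and 0.557 for Hsp90aa1. Hspa8, the constitutive member, was nearer to sham, at 0.679, 0.902 and 0.665. Over all types with at least 20 cells in both libraries and 50 UMIs, Hspa1a was past 1.5-fold lower in 12 of 12 types, Hsp90aa1 in 10 of 13, Dnajb1 in 9 of 10, Hspa1b in 9 of 11 and Hspa8 in 2 of 13. No share of all genes was counted over these types. In fibroblast-like, macrophage-like and endothelial cell-like cells 22.7, 24.7 and 31.7% of all genes were past the fold in either direction. The types come from the same pair of libraries, so they are not independent of each other.

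**Figure D4:**
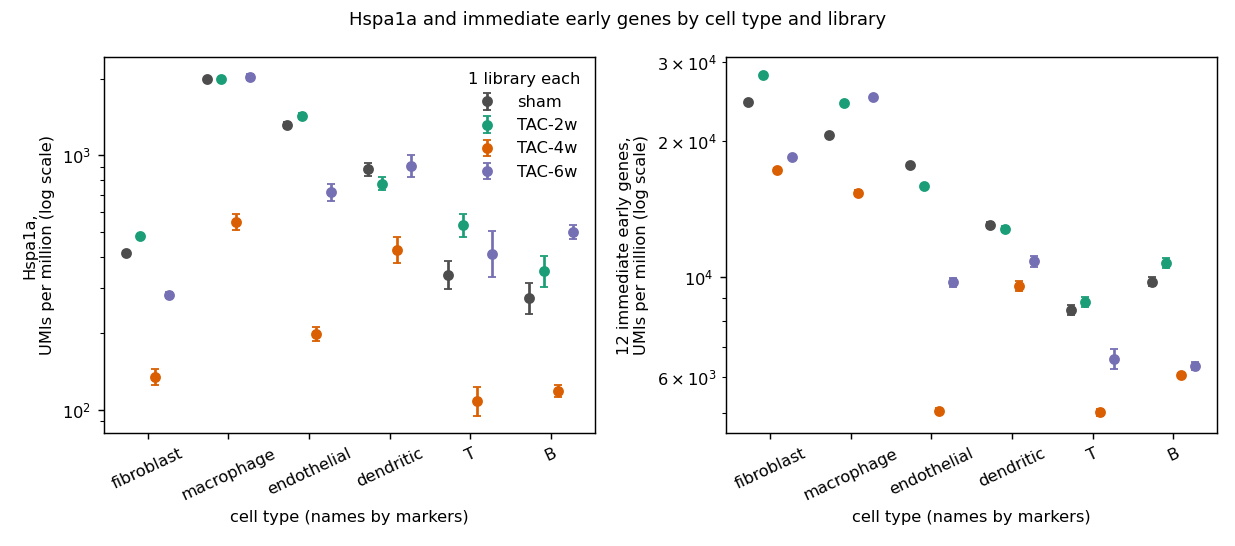
Hspa1a and the sum of 12 immediate early genes by cell type, in CPM on log axes, with 1 point per library and bars for exact Poisson 95% intervals. The TAC-4w library lies low for Hspa1a, for example at 549 against 1990 in sham in macrophage-like cells.

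Counted over the members at the fold of 1.5, the libraries gave few calls in TAC-2w and many in TAC-4w. In fibroblast-like cells 0 of 10 were past it in TAC-2w (4.71% of 13147 genes in either direction), 8 of 10 in TAC-4w, 2 higher and 6 lower (22.7% of 12518), and 1 of 10 in TAC-6w, Hsp90aa1 at 0.635 (22% of 12737). In macrophage-like cells they were 0 of 10 in TAC-2w (3.76% of 10839), 8 of 10 in TAC-4w, all lower (24.7% of 9646), and 2 of 10 in TAC-6w, Hspb7 and Cryab, both lower (22.6% of 9883). Cryab in macrophage-like cells was at 10.1, 10.1, 13.0 and 12.5 UMIs per 100 cardiomyocyte marker UMIs and Hspb7 at 1.355, 1.43, 1.85 and 1.56. In cardiomyocyte-like cells Cryab was at 12.5, 16.85, 12.1 and 9.51 and Hspb7 at 1.02, 1.12, 1.86 and 1.69. The TAC-4w values of macrophage-like cells rested on 7 Cryab UMIs and 1 Hspb7 UMI. Hspb6 in macrophage-like cells was above its ratio in cardiomyocyte-like cells in each library. Whether these values are background was not tested. Cryab and Hspb7 make up both TAC-6w calls and 2 of the TAC-4w calls in macrophage-like cells. Another TAC-4w call there, Hspb1, rested on 5 UMIs against 1002 in sham. The part of RNA from other cells in the Hspb1 value was not tested. In endothelial cell-like cells 8 members had enough UMIs, of which 1 was lower in TAC-2w (9.08% of 9167), 7 in TAC-4w (31.7% of 9355) and 5 in TAC-6w (35.3% of 7755). The median ratio of the members in TAC-4w was 0.5595, 0.318 and 0.281 in fibroblast-like, macrophage-like and endothelial cell-like cells, where that of all genes was 1.08, 1.03 and 1.09. In TAC-6w, whose library shares the batch of sham, the members' medians were 1.00, 1.02 and 0.526. Those of all genes were 0.957, 0.896 and 0.944. In TAC-2w, whose library does not share that batch, the members' medians were 0.975, 1.03 and 0.952. Those of all genes were 1.02, 1.02 and 1.00.

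Within the clusters that make up a type, Hspa1a was also low in TAC-4w. Fibroblast-like cells formed cluster 0, led by Pla1a and Pcsk6, and cluster 1, led by Rbp4 and Gdf10, which held 54.1, 55.8, 78.0 and 23.6% of them in sham and 2, 4 and 6 weeks of TAC. Hspa1a was at 93.9 CPM in TAC-4w against 563 in sham within cluster 0, and at 147 against 267 within cluster 1. Hspa1b in TAC-4w was at 59.5 CPM against 321.5 in sham within cluster 0 but at 125 against 143 within cluster 1. The difference was thus large within cluster 0 and small within cluster 1. In endothelial cluster 4, led by Fabp4 and Gpihbp1, Hspa1a was at 1540, 1507, 199.8 and 784 CPM. Cryab in endothelial cell-like cells, at 143, 90.6, 25.05 and 35.0 CPM, moved with the share of cluster 14, led by Npr3, which was 31.1, 17.0, 0.416 and 7.58% of them and held 208 CPM in sham. Within cluster 4 Cryab was at 52.4, 71.0, 25.2 and 26.3 CPM, so TAC-2w was above sham there and the later libraries below it.

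Immediate early genes, which like the inducible chaperones respond to cell handling, were lower in TAC-4w than in sham in the same 3 types. The 12 genes summed to 24440, 28046, 17297 and 18407 CPM in fibroblast-like cells of sham and 2, 4 and 6 weeks of TAC, to 20590, 24338, 15341 and 24990 in macrophage-like cells and to 17724, 15894, 5058 and 9727 in endothelial cell-like cells. This was not so in every type, with 14378 CPM in TAC-4w against 9939 in sham in the unnamed cluster, led by Wif1 and Chad, and neutrophil-like cells at 24278, 16237, 21589 and 15496 CPM. In TAC-4w 5 of 12 were past 1.5-fold lower in fibroblast-like, 6 in macrophage-like and 11 in endothelial cell-like cells, and none was past it upward. The list of other chaperones had 1, 4 and 4 lower and 1, 0 and 5 higher of the 34, 32 and 33 measured in the same types. Of all genes measured, 22.7, 24.7 and 31.7% were past the fold in either direction in these comparisons. In endothelial cell-like cells Hspa2, an Hsp70 best known from testis, was at 1.765 and Stip1, which links Hsp70 to Hsp90, at 1.66 times sham, and Dnajb4, an Hsp40, at 0.314. The part of handling or batch in the chaperone values was not tested.

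**Figure D5:**
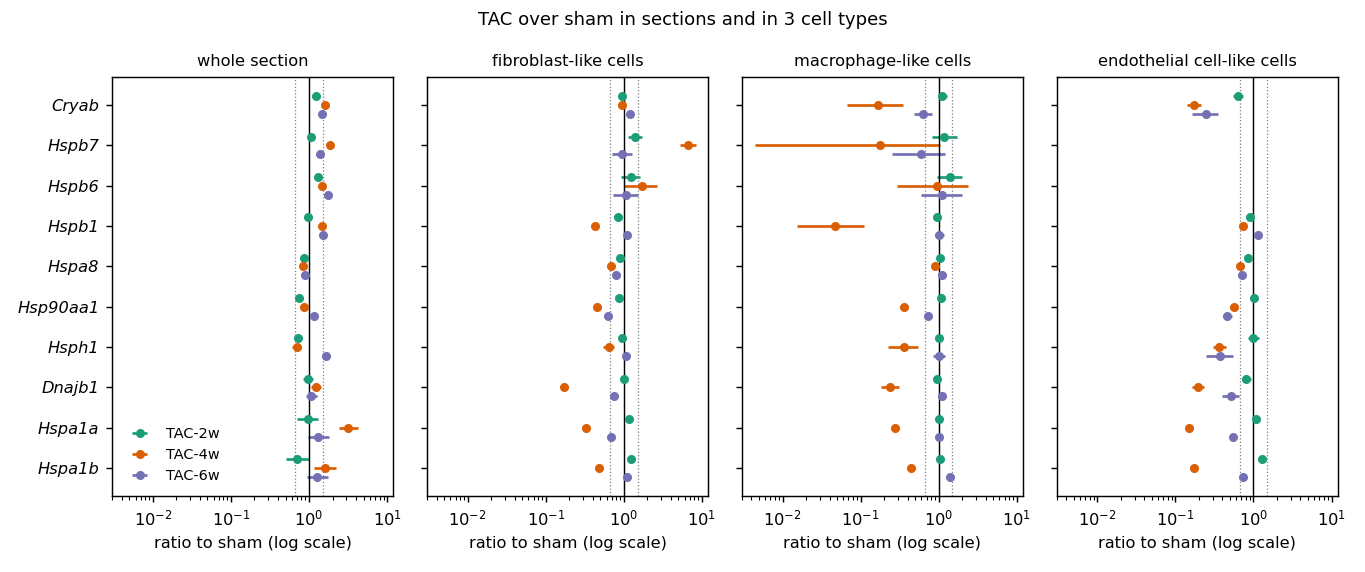
Ratio of each TAC condition to sham for each member, in the sections and in 3 cell types of the libraries, on a log axis with bars for exact 95% intervals. Hspa1a in TAC-4w lies at 3.16 in the section and between 0.151 and 0.326 in the cell types.

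Hspb7 in fibroblast-like cells was high in TAC-4w alone. It was at 3.54, 4.89, 23.35 and 3.37 CPM in sham and 2, 4 and 6 weeks of TAC, on 165, 191, 131 and 62 UMIs, and the TAC-4w ratio was 6.59 (5.2 to 8.34). In TAC-4w 61 of 391 cells (15.6%) held a UMI, with at most 11 in 1 cell, against 123 of 4314 (2.85%) in sham. With cells thinned to 1000 UMIs the ratio rested on 15 and 21 UMIs, under the minimum of 50, and the shares were 0.490, 0.494, 3.08 and 0.360%. B cell-like cells held Hspb7 in 1.29, 0.641, 0.2885 and 0.328% of cells, unthinned, at median depths of 3058, 3632, 4350 and 1902 UMIs against 10538, 12497, 13851 and 6179 in fibroblast-like cells. Within cluster 1 Hspb7 was at 5.59, 7.36, 30.0 and 7.62 CPM, and within cluster 0 at 1.44, 2.08, 0.782 and 2.31 CPM. The 6 cardiomyocyte markers were at 90.15, 111, 18.9 and 40.8 CPM in fibroblast-like cells, lowest in TAC-4w. Smooth muscle cell or pericyte markers were at 94.85, 104, 291 and 139 CPM and mesothelial markers at 1.31, 2.535, 7.84 and 0.707 CPM, both highest in TAC-4w, and their part in the Hspb7 value was not tested. Hspb6 in the same cells had a TAC-4w ratio of 1.69 (1.02 to 2.69) on 22 UMIs.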

How the data were processed

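Spatial sections and single-cell libraries of mouse hearts were deposited as tables of raw counts, UMIs per gene and spot or cell, which the authors made by alignment to mm10 and counting. The submitters' processing notes name Cell Ranger 7.0.0 and Space Ranger 1.3.1. Nuclei are named in the labels and enzymatically dissociated cells in the study's methods, so barcodes are called cells without deciding between them. Samples were grouped by their labels, and the members and gene lists were chosen with earlier results of these data known. All 10 members are named, and of other lists the genes past 1.5-fold with the largest changes. Members at least 1.5-fold from sham were counted among genes with 50 or more UMIs in the pair, a minimum not applied anew in the section alternatives.

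Counts were summed per section, or per library and cell type, and scaled to the total (CPM). Intervals are exact Poisson for levels, exact conditional binomial for ratios and Clopper-Pearson for shares. Cells with 200 to 6000 genes, 500 to 30000 UMIs and at most 15% mitochondrial UMIs were kept, 3.2% were removed as doublets, and the rest were clustered in Seurat 5.3.0 and named by fixed markers. Scripts used Python 3.11.15, numpy 2.4.6, scipy 1.17.1 and pandas 2.3.3 and were tested on simulated data. Alternatives covered scaling, thinning, doublets, the mitochondrial limit and naming.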

Additional observations from a re-analysis of the deposited data

Results flagged for a closer look

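Members are listed here that were past 1.5-fold of sham in 1 direction in the section and in the other direction in a cell type of the library of the same condition. With 1 section and 1 library per condition the difference between the assays was not tested. Hspa1a in TAC-4w was at 3.16 times sham in the section and at 0.326, 0.276 and 0.151 times in fibroblast-like, macrophage-like and endothelial cell-like cells. Hspa1b in TAC-4w was at 1.59 times in the section and at 0.478, 0.449 and 0.172 times in the same types. Hsph1 in TAC-6w was at 1.65 times in the section and at 0.370 times in endothelial cell-like cells. Hspb7 in TAC-4w was at 1.865 times in the section, 6.59 times in fibroblast-like cells and 0.1799 times in macrophage-like cells, the last on 1 UMI. Cryab in TAC-4w was at 1.62 times in the section and at 0.169 and 0.175 times in macrophage-like and endothelial cell-like cells. Per 100 UMIs of the 6 cardiomyocyte markers, macrophage-like cells of TAC-4w held 13.0 Cryab, 1.85 Hspb7 and 9.26 Hspb6 UMIs. The cardiomyocyte-like cells of TAC-4w held 12.1, 1.86 and 1.23. In TAC-2w Cryab was at 10.1 in macrophage-like and 16.85 in cardiomyocyte-like cells. Those markers were at 319, 356.5, 42.02 and 163 CPM in macrophage-like cells of sham and 2, 4 and 6 weeks of TAC. The part of free cardiomyocyte RNA in Cryab and Hspb7 was not tested. In endothelial cell-like cells the Cryab value moved with the share of cluster 14, and within cluster 4 it was at 25.2 CPM in TAC-4w against 52.4 in sham.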

How the results depend on the processing

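Counts of members past 1.5-fold of sham moved under several alternatives. In the TAC-2w section the count of 0 became 3, all lower, when mitochondrial genes and features resembling ribosomal RNA did not count toward the total. In the TAC-6w section the count of 2 became 1 without those features, 0 with the median of gene ratios as scaling, 4 with the mean over spots and 5 with spots thinned to 5000 UMIs. Spots of like depth alone, an alternative chosen after seeing the data, gave 1 member in TAC-2w, 7 in TAC-4w and 4 in TAC-6w at 5000 to 15000 UMIs, and 2 in TAC-2w and 1 in TAC-6w at 15000 to 25000 UMIs. The Hspa1a ratio in TAC-4w was 1.79, 3.46 and 4.37 in the 3 bins from shallow to deep. With cells thinned to 1000 UMIs the count became 5 in fibroblast-like cells of TAC-4w (from 8), 1 in macrophage-like cells of TAC-6w (from 2), and 0 and 3 in endothelial cell-like cells of TAC-2w and TAC-6w (from 1 and 5). In macrophage-like cells the TAC-6w count was 1 without doublet removal, 0 at a mitochondrial share under 5% and 1 with cells named by their own marker score, which gave 1 in TAC-2w (from 0). Hspb7 in macrophage-like cells turned to 1.40 in TAC-4w and 1.04 in TAC-6w after thinning. Before thinning it had 1 and 9 UMIs there, against 53 in sham, and thinning can only lower these counts. The causes were not tested. The other 76 values of such counts kept within 1.5 times. Of 180 section ratios of single members under the alternatives 7 turned across 1, none of them past the fold in the main setting (Dnajb1 in TAC-2w and TAC-6w, Hspb1 and Hspb7 in TAC-2w and Hsp90aa1 in TAC-6w), and of 588 in the libraries 38 did, 2 of them past the fold. No paired analysis was possible because each condition has 1 sample per assay, so no replicate could be left out either. Depth limits Hspa1a and Hspa1b in the sections, Hspb6 and Hspb7 outside muscle cells, and all members in the 10 cardiomyocyte-like cells of TAC-6w.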

Other observations

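Without the limit on mitochondrial share, barcodes with the cardiomyocyte markers as their highest score numbered 439, 396, 64 and 62 in sham and 2, 4 and 6 weeks of TAC, with mitochondrial shares of 22.7, 25.8, 19.4 and 11.2% of their UMIs. Cryab was at 2277, 2054, 5631 and 1776 CPM in them, Hspb7 at 224, 194, 897 and 333 CPM and Hspb6 at 147, 128, 668 and 256.5 CPM, so TAC-4w was the highest library for all 3. Hspa1a was at 855, 763, 24.4 and 853 CPM in the same barcodes, and TAC-4w was the lowest library. These barcodes held less Cryab than the clustered cardiomyocyte-like cells, which had 6117 CPM in sham and 7721 in TAC-4w. In the clustered cells TAC-6w was the highest library for Hspb7 (1310 CPM) and Hspb6 (982 CPM). The part of RNA from other cells in the order of the libraries was not tested.

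B cell-like cells numbered 232, 156, 2426 and 915 in sham and 2, 4 and 6 weeks of TAC. Hspa1b was at 188, 242, 191 and 615 CPM in them and Hspa1a at 274, 351, 119 and 499.8 CPM, both highest in TAC-6w.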
